A study of Mus musculus with 15 samples.

Results

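The IL-1 family genes described here are 10 genes, taken by name from the mouse symbols of the 51763 genes counted in bone marrow-derived macrophages (BMDMs). They were 4 agonist ligands (*Il1a*, *Il1b*, *Il18* and *Il33*), the antagonist *Il1rn* with the binding protein *Il18bp*, and 4 receptor genes, of which *Il1r2* encodes a decoy. All 10 were found and all 10 passed a filter on low counts that 16919 genes passed, *Il33* through the stimulated libraries alone. The macrophages came from wild-type female C57BL/6NTac mice of 8 to 10 weeks and were matured in 10 ng/mL M-CSF. The labels give 10 days of culture, and the study's methods give a shorter maturation followed by an overnight rest. The cells were then stimulated for 24 h in 5 conditions of 3 libraries each. The control received PBS. HMGB1 was given at 5 µg/mL, either in its fully reduced form (frHMGB1) or in its disulfide form (dsHMGB1). The remaining conditions were LPS at 1 µg/mL and LPS together with 20 ng/mL IFNγ (LPS/IFNγ), the mixture that yields classical M1 cells. HMGB1 is a nuclear protein that acts as an alarmin outside the cell, and its disulfide form and bacterial LPS are both TLR4 ligands. For LPS/IFNγ the treatment label gives 1 µg/mL LPS and the protocol text 100 ng/mL, so LPS/IFNγ and LPS may differ in LPS dose as well as in IFNγ. The frHMGB1 was made in-house and the dsHMGB1 came from another laboratory, and the labels and the study's methods differ on whether the frHMGB1 buffers held DTT, so that redox form and source of the protein cannot be told apart. Cells of 5 mice were pooled before seeding in every condition. The p-values therefore measure only the spread between wells and libraries of 1 pool of cells.

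IL-1α and IL-1β are ligands of the receptor IL-1R1, which signals together with the accessory protein encoded by *Il1rap*. IL-1Ra, the product of *Il1rn*, occupies the same receptor without signalling, and the decoy receptor IL-1R2 binds ligand without a signalling domain. IL-18 is held in check by IL-18BP, and IL-33 signals through ST2, encoded by *Il1rl1*, with the same accessory protein. IL-1β and IL-18 are made as precursors that caspase-1 cleaves in inflammasomes, so an mRNA level is not a level of active cytokine.

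Library totals ranged from 40934540 to 80925478 counts. PBS replicate 3 stood apart from the other PBS libraries, with Pearson correlations of 0.934 and 0.939 across genes on the log2 CPM scale (CPM being counts scaled to library size). The remaining replicate pairs within conditions had 0.987 to 0.993. All 8 macrophage markers were counted, *Lyz2* most of all. Of 8 neutrophil markers, 3 were at 0 in every library (*Ly6g*, *S100a9*, *Mpo*), as were 5 of 8 mast cell and basophil markers (*Ms4a2*, *Fcer1a*, *Tpsb2*, *Cma1*, *Prss34*) and 3 of 8 lymphocyte markers (*Cd3e*, *Cd3d*, *Ncr1*). Others of these lists were counted. Among the neutrophil markers, *S100a8* averaged 158 normalized counts in PBS and 309 with LPS, where it was called higher, and *Camp* was called higher in dsHMGB1 (30.5, from 1.72 in PBS) and LPS (15.6). *Kit*, of the mast cell list, was called lower in LPS/IFNγ (256 to 123). Of the lymphocyte list, *Il7r* fell from 20645 in PBS to 10196 with dsHMGB1, 6040 with LPS and 7380.01 with LPS/IFNγ, while *Gata3* rose from 3.48 to 13.7, 19.1 and 20.2. PBS replicate 3 had 292 for *S100a8*, within the LPS range, and 10060 for *Il7r*, within the dsHMGB1 range. Without it the PBS means were 90.7 for *S100a8* and 25938 for *Il7r*. The 8 dendritic cell markers, none of them at 0 in all libraries, summed to 183 to 258 in PBS, 166 to 202 in frHMGB1, 202 to 262 with dsHMGB1, 619 to 653 with LPS and 1101 to 1183 with LPS/IFNγ. In LPS and in LPS/IFNγ 3 of the 5 tested were called higher (*Zbtb46*, *Xcr1* and *Ccr7*), against 26.7% and 29% of all genes. *Clec9a* was lower in both and *Itgae* lower in LPS/IFNγ, against 36.2% and 31.2% of all genes called lower in LPS and LPS/IFNγ. The 8 fibroblast and stromal markers, led by *Col1a1*, summed to 8069 to 15416 normalized counts in PBS, 13871 to 14008 in frHMGB1, 15110 to 18843 with dsHMGB1, 20467 to 22044 with LPS and 20999.6 to 21129 with LPS/IFNγ, and none of them was at 0 in all libraries. *Il1rn*, *Il18bp*, *Il33* and *Il1rap* were, like the dendritic cell sum, highest in LPS/IFNγ, and the part of these markers in the results was not tested. In bulk RNA, fewer cells of a type and less RNA per cell cannot be told apart.

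The sequences just upstream of the transcript starts are shown for the genes on which the agonist and antagonist comparison turned, *Il1a*, *Il1b* and *Il1rn*. They are RefSeq sequence of GRCm38.p6, printed 5′ to 3′ on the strand of the gene and without exonic bases. For *Il1a* the stretch was chr2:129309973-129310222 (minus strand), and for *Il1b* chr2:129371140-129371389 (minus strand). *Il1rn* has separate annotated starts, and the stretches before the upstream start (chr2:24336610-24336852, plus strand) and before an internal start (chr2:24345041-24345287, plus strand) are shown. Capitals mark matches to TATAAA or to TGANTCA, the AP-1 motif, which reads the same on both strands.
Il1a: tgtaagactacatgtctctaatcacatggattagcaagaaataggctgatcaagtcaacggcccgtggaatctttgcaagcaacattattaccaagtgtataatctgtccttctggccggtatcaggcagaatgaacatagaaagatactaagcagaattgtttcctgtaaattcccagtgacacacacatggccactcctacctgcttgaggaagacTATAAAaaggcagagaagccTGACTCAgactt
Il1b: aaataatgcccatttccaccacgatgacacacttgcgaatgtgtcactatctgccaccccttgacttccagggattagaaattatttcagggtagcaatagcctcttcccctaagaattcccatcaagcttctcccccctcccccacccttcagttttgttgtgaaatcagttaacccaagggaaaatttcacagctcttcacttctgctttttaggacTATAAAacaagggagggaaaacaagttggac
Il1rn upstream start: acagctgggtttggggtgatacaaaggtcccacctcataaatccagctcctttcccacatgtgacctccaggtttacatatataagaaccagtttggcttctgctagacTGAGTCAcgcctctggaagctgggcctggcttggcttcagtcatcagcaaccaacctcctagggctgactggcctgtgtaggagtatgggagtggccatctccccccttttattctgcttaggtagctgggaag
Il1rn internal start: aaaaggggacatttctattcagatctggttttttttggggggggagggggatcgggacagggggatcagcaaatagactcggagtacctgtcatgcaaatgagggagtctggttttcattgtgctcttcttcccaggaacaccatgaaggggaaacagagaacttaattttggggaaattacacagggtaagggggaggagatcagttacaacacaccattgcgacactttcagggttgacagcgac
TATAAA lay 32 bases before the *Il1a* start and 31 before the *Il1b* start, and neither *Il1rn* stretch held it. It was found in 5 of the 15 windows of 250 bases before the starts of the 10 genes, against 12.4% of 32851 such windows of all genes. The other matches lay 175 bases before the *Il18* start, on the opposite strand, and 203 and 29 bases before separate *Il33* starts. TGANTCA stood in the *Il1a* window and in that of the upstream *Il1rn* start, 2 of 15 windows, against 6.75% of all windows. The NF-κB motif was in 1 window (an internal start of *Il1r1*, against 7.25% of all windows), TTGCNNAA (C/EBP) in 4 (against 9.56%) and the interferon-response motif ISRE in 0 (against 2.98%). Motifs were searched on both strands, and windows of neighbouring starts overlap. A match describes the letters of the window only.

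Across the 10 genes, dsHMGB1, LPS and LPS/IFNγ raised the ligands, the antagonist and the binding protein, and of the receptor genes they raised *Il1rap*. For *Il33* in dsHMGB1 the call rested on 5 counts in all, the libraries overlapped PBS, and the call was lost in some alternative fits. A gene was called when its adjusted p, from edgeR's quasi-likelihood test with Benjamini-Hochberg adjustment over all 16919 genes, was under 0.05. Against PBS, dsHMGB1 raised 7 of 10 genes, where 23.3% of all genes were called higher, and LPS raised 7 of 10, against 26.7%. LPS/IFNγ raised 8 of 10 against 29%, the added gene being *Il1rl1*, whose call was also lost in some alternative fits. The counts of 7, 7 and 8 include *Il33*, which passed the filter through the stimulated libraries alone. With 0 counts in PBS it could not have been called lower, so its part in these counts is no test. With each library left out in turn, 6 to 8 were called higher in dsHMGB1 and 7 to 8 in LPS/IFNγ, with no share of all genes given for these fits. With frHMGB1, 1 of 10 was called higher, *Il1b*, against 1.31% of all genes. The number called lower than PBS was 0 in all 4 comparisons, where 5.69%, 24.2%, 36.2% and 31.2% of all genes were called lower in frHMGB1, dsHMGB1, LPS and LPS/IFNγ, and it was 0 as well by DESeq2 and at an unadjusted p under 0.05. The median log2 fold change of the 10 genes was 0.15 in frHMGB1, 1.96 with dsHMGB1, 2.97 with LPS and 3.17 with LPS/IFNγ. With *Il33* set at its ratio to a floor of 3 counts in PBS, the dsHMGB1 median was 1.41. Over all genes tested the medians were -0.01, -0.10, -0.21 and -0.12. These comparisons share the PBS libraries.

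**Figure D1:**
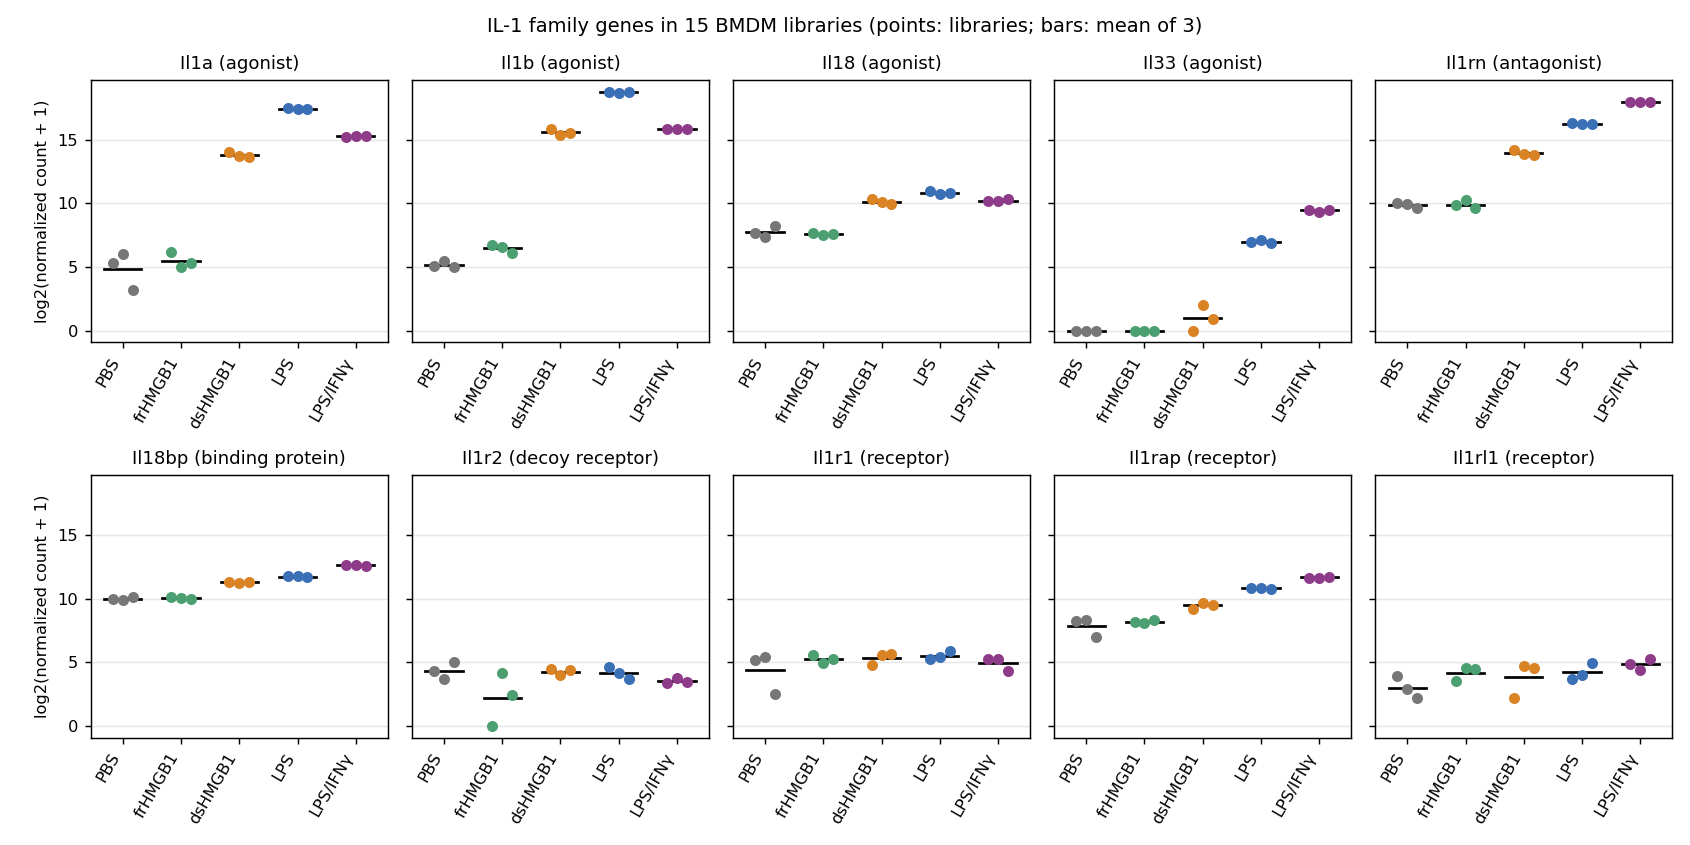
Level of each gene in the 15 libraries, as log2(normalized count + 1) on the y axis, by condition on the x axis, with points for libraries and bars for the mean of 3. *Il1a*, *Il1b* and *Il18* peak in LPS, *Il1rn*, *Il18bp*, *Il33* and *Il1rap* in LPS/IFNγ, and *Il1r1*, *Il1r2* and *Il1rl1* stay under 60 normalized counts in all libraries.

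*Il1b* (ENSMUSG00000027398, chromosome 2 of GRCm38 from 129364570 to 129371139) encodes IL-1β. It had 33.0, 42.3 and 30.5 normalized counts in PBS replicates 1 to 3 and 105, 96.1 and 66.9 in frHMGB1. The values were 58184, 43704 and 47582 with dsHMGB1, 444854, 429496 and 453235 with LPS, and 58672, 59667 and 60272 with LPS/IFNγ. Every frHMGB1 library was above every PBS library, and all stimulated conditions other than frHMGB1 lay far above both. The log2 fold change over PBS was 1.32 in frHMGB1 (standard error 0.21, adjusted p = 0.000411), 10.44 with dsHMGB1, 13.59 with LPS and 10.70 with LPS/IFNγ (standard error 0.18 for these 3). The frHMGB1 call was not made when PBS and frHMGB1 were fitted alone (adjusted p = 0.106). Without PBS replicate 3 the edgeR log2 fold change was 1.24, against 1.33 with it. LPS/IFNγ was 7.43-fold lower than LPS (log2 fold change -2.89, standard error 0.14, adjusted p = 4.53e-08), and dsHMGB1 was 8.88-fold lower than LPS (adjusted p = 3.68e-08). Between dsHMGB1 and LPS/IFNγ the log2 difference was -0.26 (95% interval -0.53 to 0.01, adjusted p = 0.26), with the highest dsHMGB1 library just under the lowest LPS/IFNγ library. Without PBS replicate 3 in the shared estimate of the spread, that difference was called (edgeR log2 -0.22, against -0.24 with it, adjusted p = 0.0482).

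*Il1a* (ENSMUSG00000027399, chromosome 2 from 129299610 to 129309972), the gene of IL-1α, lies 54.6 kb from *Il1b* on the same strand. Its levels were 38.8, 64.3 and 8.20 normalized counts in PBS and 71.6, 31.7 and 37.8 in frHMGB1. They were 16963, 13743 and 12942 with dsHMGB1, 181386, 174625 and 173537 with LPS, and 38832, 39424 and 39907 with LPS/IFNγ. PBS and frHMGB1 overlapped, and the other conditions separated from them and from one another. The log2 fold change over PBS was 0.30 in frHMGB1 (adjusted p = 0.829), 8.58 with dsHMGB1, 12.18 with LPS and 10.02 with LPS/IFNγ, with standard errors of 0.42 to 0.44. LPS/IFNγ was 4.48-fold lower than LPS (log2 fold change -2.16, standard error 0.40, adjusted p = 0.000928). In contrast to *Il1b*, dsHMGB1 was called lower than LPS/IFNγ, by 2.71-fold (log2 fold change -1.44, adjusted p = 0.00901). Whether the differences of the 2 genes differ from each other was not tested.

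*Il18* (ENSMUSG00000039217, chromosome 9 from 50554827 to 50581840), the gene of the IFNγ-inducing cytokine IL-18, was already expressed in PBS. It had 200.4, 163 and 291 normalized counts in PBS, 201, 182 and 188 in frHMGB1, 1308, 1093 and 993 with dsHMGB1, 2031, 1678 and 1791 with LPS, and 1172, 1153 and 1277 with LPS/IFNγ. The frHMGB1 libraries lay within the PBS range, and dsHMGB1 and LPS/IFNγ overlapped. It rose 5.24-fold in dsHMGB1, 8.49-fold in LPS and 5.56-fold in LPS/IFNγ (log2 fold changes 2.39, 3.09 and 2.48, standard error 0.19 for each). The fall from LPS to LPS/IFNγ was 1.53-fold (adjusted p = 0.0179) and was not called without LPS replicate 1 (adjusted p = 0.0546). It was called without PBS replicate 3 in the shared estimate of the spread, with an adjusted p of 5.83e-05. dsHMGB1 and LPS/IFNγ differed by -0.09 on the log2 scale (95% interval -0.44 to 0.27, adjusted p = 0.805).

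*Il33* (ENSMUSG00000024810, chromosome 19 from 29925114 to 29960718) encodes the nuclear alarmin IL-33. It had 0 counts in all PBS and frHMGB1 libraries, and 0, 4 and 1 counts in the dsHMGB1 libraries. In LPS it had 122, 140.5 and 119 normalized counts, and in LPS/IFNγ 732, 658 and 706. LPS and LPS/IFNγ separated from each other and from all other libraries. Against a floor of 3 counts over the PBS group, LPS was at least 168-fold higher and LPS/IFNγ at least 929-fold higher than PBS. LPS/IFNγ exceeded LPS 5.51-fold (log2 fold change 2.46, standard error 0.17, adjusted p = 0.000171). The ratio of LPS to dsHMGB1 was 93.2 (95% interval 39.4 to 289) and that of LPS/IFNγ to dsHMGB1 514 (220 to 1585), intervals that cover counting error only. The dsHMGB1 call over PBS (adjusted p = 0.0309) rested on 5 counts in all. Those counts were 1.81-fold above the same floor, a value that leaves out their own counting error and so is not a lower bound. The call fell away without dsHMGB1 replicate 2 (adjusted p = 0.261) and without PBS replicate 1 or 2 (0.0611 and 0.0607). The sum of the fibroblast and stromal markers was also highest in LPS and LPS/IFNγ, as was the dendritic cell sum. In both, 6 of the 7 tested fibroblast and stromal markers were called higher than in PBS, against 26.7% and 29% of all genes. PBS replicate 3 lowered the PBS mean of *Col1a1*, which was 4655 with it and 5570 without it. The 8 endothelial markers summed to 4876 to 7668 in PBS, 6362 to 6561 in frHMGB1, 6631 to 8006 with dsHMGB1, 7288 to 7919 with LPS and 9943 to 10477 with LPS/IFNγ. In LPS/IFNγ *Kdr* was called higher (1001 to 7410) and *Vwf* lower (5660 to 2787), with 4 others tested and not called. *Kdr* averaged 4249 with dsHMGB1 and 4673 with LPS, and *Vwf* 3201 and 2902. In PBS, with fibroblast markers at 8069 or more, *Il33* was at 0, and the part of these markers in its rise was not tested.

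*Il1rn* (ENSMUSG00000026981, chromosome 2 from 24336853 to 24351494) was the gene of this group with the highest normalized counts in LPS/IFNγ. It had 1043, 1006 and 781 normalized counts in PBS and 933, 1229 and 781 in frHMGB1. It reached 18699, 15239.6 and 14563 with dsHMGB1, 83715, 78808 and 77415 with LPS, and 252419, 257539 and 264434 with LPS/IFNγ. PBS and frHMGB1 overlapped, and dsHMGB1, LPS and LPS/IFNγ followed each other upwards with no overlap. The rise over PBS was 17.1-fold in dsHMGB1, 84.6-fold in LPS and 273-fold in LPS/IFNγ (log2 fold changes 4.10, 6.40 and 8.09, standard error 0.17 for each). LPS/IFNγ exceeded LPS 3.23-fold (adjusted p = 7.29e-06), the opposite direction to *Il1a* and *Il1b*. Counts per gene do not separate the secreted form of IL-1Ra from the intracellular forms.

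*Il18bp* (ENSMUSG00000070427, chromosome 7 from 102014885 to 102018690), whose secreted product neutralizes IL-18, moved the same way over a narrower range. Its normalized counts were 987, 973 and 1112 in PBS, 1120.3, 1083 and 993 in frHMGB1, 2563, 2345 and 2539 with dsHMGB1, 3439, 3479 and 3247 with LPS, and 6248, 6273 and 6197 with LPS/IFNγ. Only PBS and frHMGB1 overlapped. It rose 2.43-fold, 3.32-fold and 6.11-fold over PBS in dsHMGB1, LPS and LPS/IFNγ (log2 fold changes 1.28, 1.73 and 2.61, standard errors 0.07 to 0.08), and LPS/IFNγ exceeded LPS 1.84-fold (adjusted p = 3.06e-06). *Il18bp* shares 80 bases of exon with *Numa1* on the opposite strand, which had 136000 counts over all libraries against 41973 for *Il18bp*. The libraries were stranded, but the strand setting of the counting is not stated in the sources used, so reads of the shared bases may not have been kept apart. The overlapping genes of *Il1a* (*Gm14023*, 674 counts) and *Il1b* (*Il1bos*, 5900 counts) were small beside 546422 and 1299691 counts.

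**Figure D2:**
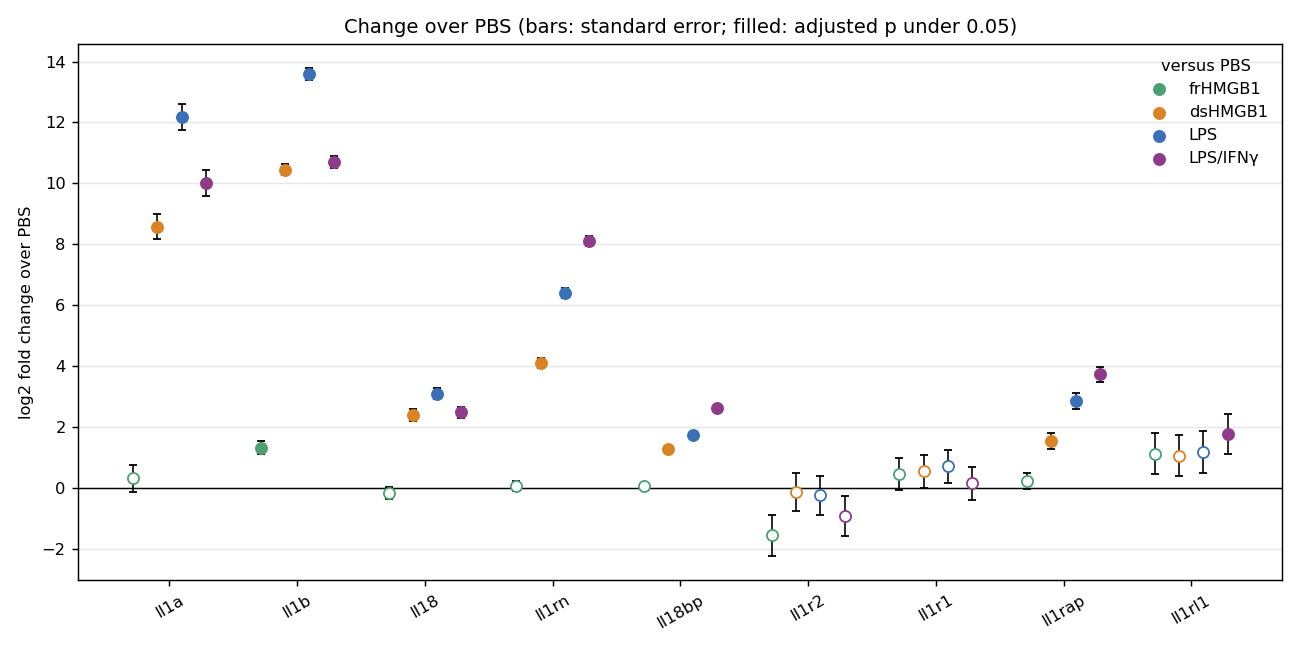
Log2 fold change over PBS (y axis, DESeq2) of 9 of the 10 genes (x axis) in the 4 stimulated conditions, with bars for the standard error and filled points for an adjusted p under 0.05. *Il33* is not drawn because PBS had 0 counts. *Il1a* and *Il1b* are highest in LPS, at 12.18 and 13.59, and *Il1rn* in LPS/IFNγ, at 8.09.

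The question of agonist against antagonist was addressed with the log2 ratio of normalized counts within each library, in which library size cancels. With 3 libraries against 3, the exact two-sided permutation test cannot go below p = 0.1, so that none of these comparisons could pass 0.05. The *Il1b* to *Il1rn* log2 ratio was -4.96, -4.56 and -4.66 in PBS and -3.15, -3.67 and -3.54 in frHMGB1. It rose to 1.64, 1.52 and 1.71 with dsHMGB1 and 2.41, 2.45 and 2.55 with LPS, and was -2.11, -2.11 and -2.13 with LPS/IFNγ. No conditions overlapped, and the order was PBS, frHMGB1, LPS/IFNγ, dsHMGB1 and LPS. The ratio was thus 24.0-fold lower in LPS/IFNγ than in LPS (log2 difference -4.58, standard error 0.04, exact permutation p = 0.1). In dsHMGB1 it was 13.3-fold higher than in LPS/IFNγ (log2 difference 3.74, standard error 0.06, exact permutation p = 0.1) while the mean of *Il1b* itself differed by 1.19-fold. Against LPS, dsHMGB1 was 1.80-fold lower (log2 difference -0.85, standard error 0.07, exact permutation p = 0.1).

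The *Il1a* to *Il1rn* log2 ratio averaged -5.06 ± 1.30 (SD, n = 3) in PBS, -4.43 ± 0.78 in frHMGB1, -0.15 ± 0.02 with dsHMGB1, 1.14 ± 0.02 with LPS and -2.71 ± 0.01 with LPS/IFNγ. PBS and frHMGB1 overlapped (exact permutation p = 0.6) and the other conditions kept the order of the *Il1b* ratio. It was 14.5-fold lower in LPS/IFNγ than in LPS and 5.89-fold higher in dsHMGB1 than in LPS/IFNγ (exact permutation p = 0.1 for each). The *Il18* to *Il18bp* log2 ratio averaged -2.27 ± 0.32 in PBS, -2.48 ± 0.09 in frHMGB1, -1.14 ± 0.20 with dsHMGB1, -0.89 ± 0.15 with LPS and -2.38 ± 0.09 with LPS/IFNγ. LPS/IFNγ overlapped PBS (log2 difference -0.11, standard error 0.19, exact permutation p = 0.8) and was 2.81-fold lower than LPS (p = 0.1, exact permutation). The *Il1r1* to *Il1r2* ratio overlapped in all 8 comparisons (exact permutation p from 0.3 to 1), and it rested on few counts. Whether the mRNA ratios hold for the secreted proteins was not measured here.

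**Figure D3:**
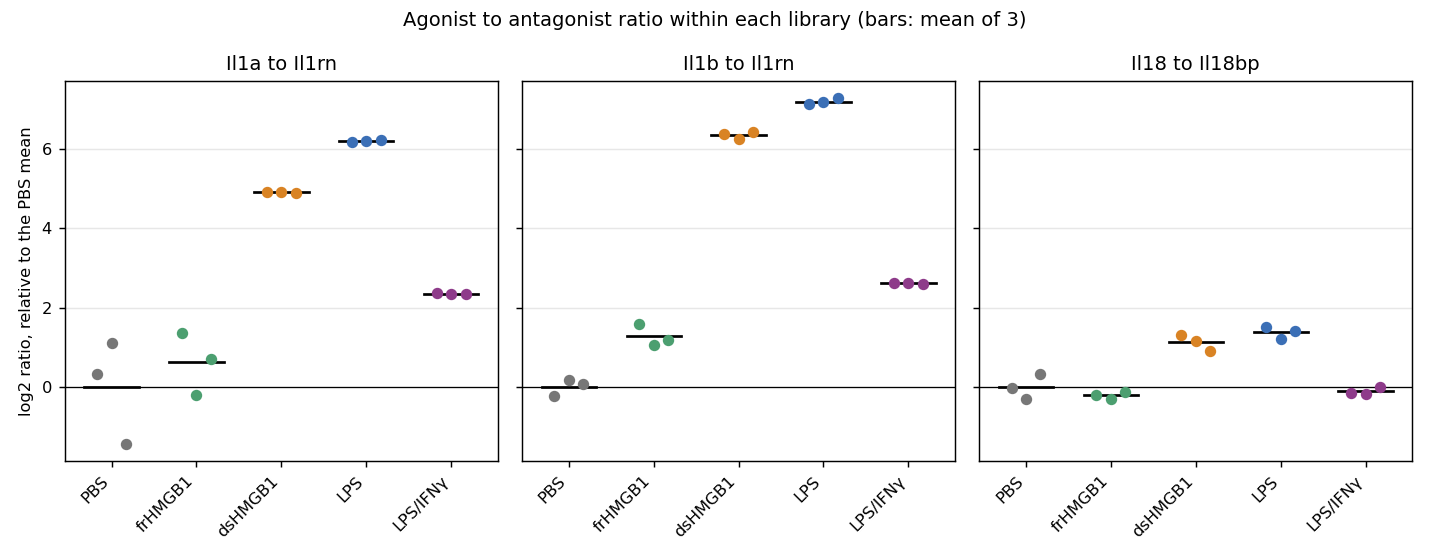
Log2 ratio of agonist to antagonist or binding protein within each library (y axis, relative to the PBS mean) by condition (x axis), with points for libraries and bars for the mean of 3. The *Il1b* to *Il1rn* ratio is 6.35 above PBS in dsHMGB1, 7.19 with LPS and 2.61 with LPS/IFNγ, and the *Il18* to *Il18bp* ratio overlaps PBS in LPS/IFNγ.

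Between stimulated conditions, *Il1a*, *Il1b* and *Il18* moved against *Il1rn* and *Il18bp* when LPS/IFNγ was set against LPS, and *Il33* moved with the latter. LPS/IFNγ against LPS called 4 of 10 genes higher (*Il33*, *Il1rn*, *Il18bp* and *Il1rap*), where 16.3% of all genes were called higher, and 3 of 10 lower (*Il1a*, *Il1b* and *Il18*), against 9.36%. dsHMGB1 against LPS called 7 of 10 lower, against 10.6% of all genes, and 0 higher, against 15.8%. dsHMGB1 against LPS/IFNγ called 5 of 10 lower, against 16.7%, and 0 higher, against 16.5%. dsHMGB1 against frHMGB1 called 7 of 10 higher, against 27.7%, and 0 lower, against 23.1%, and DESeq2 called 6 higher, without *Il33*. These counts of 0 were also found by DESeq2 and at an unadjusted p under 0.05. *Il33*, which passed the filter through the LPS and LPS/IFNγ libraries, is among the genes called in each of these comparisons.

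*Il1rap* (ENSMUSG00000022514, chromosome 16 from 26581704 to 26730117), the accessory chain shared by the IL-1, IL-33 and IL-36 receptors, was the receptor gene that rose most in counts. It had 299, 311 and 125 normalized counts in PBS, 286, 272 and 312 in frHMGB1, 574, 828 and 741 with dsHMGB1, 1801, 1859 and 1716 with LPS, and 3233, 3180.1 and 3353 with LPS/IFNγ. PBS replicate 3 was the lowest library, and dsHMGB1, LPS and LPS/IFNγ did not overlap each other or PBS. The log2 fold change over PBS was 1.53 with dsHMGB1, 2.86 with LPS and 3.72 with LPS/IFNγ (standard error 0.26 for each). By edgeR it was 1.51, 2.78 and 3.68, and without PBS replicate 3 it was 1.19, 2.49 and 3.34. LPS/IFNγ exceeded LPS 1.82-fold (adjusted p = 0.0208), a call that was not made when any 1 of the 6 libraries was left out (adjusted p 0.0633 to 0.0902). It was made without PBS replicate 3, with an adjusted p of 7.93e-07. Gene counts do not separate the membrane and soluble forms of the protein.

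The receptor genes *Il1r1*, *Il1rl1* and *Il1r2* were counted at low levels throughout. *Il1r1* (ENSMUSG00000026072, chromosome 1 from 40225080 to 40317257), the signalling IL-1 receptor, had 35.6, 40.4 and 4.69 normalized counts in PBS, 46.0, 29.6 and 36.7 in frHMGB1, 25.8, 45.5 and 47.9 with dsHMGB1, 36.2, 40.4 and 57.3 with LPS, and 36.1, 36.8 and 18.3 with LPS/IFNγ. All conditions overlapped, and no comparison called it. The 95% interval of its log2 fold change over PBS ran from -0.50 to 1.56 with dsHMGB1, -0.35 to 1.74 with LPS and -0.91 to 1.18 with LPS/IFNγ. PBS replicate 3, at 4.69, was far below the other PBS libraries, and without it the edgeR log2 fold changes were 0.04, 0.17 and -0.40, none of them called.

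*Il1r2* (ENSMUSG00000026073, chromosome 1 from 40074079 to 40125231), the decoy receptor, had 18.7, 12.0 and 31.6 normalized counts in PBS, 0, 16.4 and 4.31 in frHMGB1, 21.4, 14.7 and 19.3 with dsHMGB1, 23.3, 16.4 and 11.8 with LPS, and 9.54, 12.6 and 10.1 with LPS/IFNγ. Every stimulated condition overlapped PBS and none was called. Leaving out frHMGB1 replicate 2 made a call of frHMGB1 below PBS (log2 fold change -3.15, adjusted p = 0.0383) that the full set did not make (-1.56, adjusted p = 0.331). Unlike *Il1rn*, the decoy receptor was thus not called over PBS in any condition, and in LPS/IFNγ its 95% interval ran from -2.19 to 0.33. *Il1rl1* (ENSMUSG00000026069, chromosome 1 from 40429570 to 40465415), the IL-33 receptor, had 14.2, 6.31 and 3.51 in PBS, 10.7, 22.5 and 20.5 in frHMGB1, 3.56, 24.9 and 22.7 with dsHMGB1, 11.6, 14.9 and 29.4 with LPS, and 27.6, 20.0 and 36.6 with LPS/IFNγ. It was called in LPS/IFNγ (log2 fold change 1.76, standard error 0.66, adjusted p = 0.0368), where no library overlapped PBS. That call was not made without PBS replicate 2 (adjusted p = 0.0965), without PBS replicate 3 (0.0605) or without LPS/IFNγ replicate 1 or 3 (0.0683 and 0.115), and with the replicate number as a block it was 0.0656. Without dsHMGB1 replicate 1, *Il1rl1* was also called in dsHMGB1 (0.0493).

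Levels of different genes were compared as counts per kb of exon, scaled to the same total in every library (as in TPM). In PBS the order was led by *Il18bp* at 21.9 ± 4.79 (SD, n = 3), with *Il18* at 13.1 ± 1.31 and *Il1rn* at 11.5 ± 4.51, which overlapped each other. *Il1rap*, *Il1a* and *Il1b* followed at 1.53, 1.39 and 1.24, also overlapping. In dsHMGB1 *Il1b* led at 1412 ± 137, before *Il1a* at 398 ± 38.5 and *Il1rn* at 158 ± 13.7. The same order was found in LPS, at 9522 ± 213, 3670 ± 117 and 593 ± 29.3, whereas in LPS/IFNγ *Il1rn* led at 2108 ± 35.3, before *Il1b* at 1411 ± 17.3 and *Il1a* at 902 ± 10.3, with no overlap between these 3. No receptor gene exceeded 13.2 in any library, and *Il1r1*, *Il1r2* and *Il1rl1* stayed under 1. The union of exons is long for *Il1rn* (5535 bases, against 2554 for its longest transcript) and for *Il1rap* (11360 against 4520). This lowers the levels of both on this scale.

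*Il1r2*, *Il1r1* and *Il1rl1* sit in a row of 6 receptor genes on 477.6 kb of chromosome 1, all on the plus strand, with *Il1rl2* (IL-36 receptor), *Il18r1* and *Il18rap* (the chains of the IL-18 receptor). Of these 6, *Il18rap* was called over PBS in dsHMGB1, LPS and LPS/IFNγ. The PBS mean was 8.70 ± 8.01 normalized counts (SD, n = 3), and it rose to 50.3 ± 5.98 with dsHMGB1, 98.6 ± 38.4 with LPS and 2114 ± 170.4 with LPS/IFNγ, which was 7.83 above PBS on the log2 scale (standard error 0.55, adjusted p = 1.74e-07). *Il18r1*, the ligand-binding chain, had at most 4.21 normalized counts in any library and did not pass the filter, and *Il1rl2* was not called (215 ± 136 in PBS, 178 ± 13.8 with LPS/IFNγ). PBS replicate 3 had 58.6 for *Il1rl2* against 295 and 292 in the other PBS libraries, and without it *Il1rl2* was called lower in LPS (edgeR log2 fold change -0.48, adjusted p = 0.00362) and LPS/IFNγ (-0.80, adjusted p = 2.78e-05). *Sigirr*, an inhibitory receptor of the family, fell from 21.3 ± 18.0 in PBS to 1.32 ± 1.15 with LPS/IFNγ (log2 fold change -3.97, adjusted p = 0.00226). PBS replicate 3 was the highest library for *Sigirr*, at 39.8. Without it the PBS mean was 12.0 and the edgeR log2 fold change -3.14 (adjusted p = 0.00449), against -3.84 with it. *Il1f9*, the gene of IL-36γ, was the 1 of 5 other ligands past the filter and rose from 4.61 ± 2.04 in PBS to 20.9 ± 8.63 with dsHMGB1, 22.6 ± 8.73 with LPS and 38.9 ± 12.7 with LPS/IFNγ. *Il1f8* (IL-36β), *Il1rapl1* and *Il1rapl2* were at 0 in all libraries, and *Il1f6* (IL-36α), *Il1f5* (the IL-36 receptor antagonist) and *Il1f10* had at most 12.8 normalized counts in any library.

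The genes of inflammasome processing and of IL-1 receptor signalling formed, with these other ligands and receptors, 4 lists of 42 genes, of which 35 were tested. Over PBS, 4 were called higher and 0 lower in frHMGB1 (9 and 0 at an unadjusted p under 0.05, 5 and 0 by DESeq2), where 1.31% of all genes were called higher and 5.69% lower. In dsHMGB1 23 were higher and 2 lower (23.3% and 24.2% of all genes), in LPS 23 and 5 (26.7% and 36.2%), and in LPS/IFNγ 24 and 7 (29% and 31.2%). The median log2 fold change of the 35 genes was 0.18 in frHMGB1, 1.41 with dsHMGB1, 1.80 with LPS and 1.24 with LPS/IFNγ, beside -0.01, -0.10, -0.21 and -0.12 over all genes. Of the 11 processing genes, 8 were called higher in each of dsHMGB1, LPS and LPS/IFNγ, and 1, 2 and 2 lower. *Nlrp3*, an inflammasome sensor, came first (log2 fold changes 6.55, 7.08 and 6.23, each with a standard error of 0.18). *Nlrp1b*, another sensor, fell by 2.59 with dsHMGB1, by 3.40 with LPS and by 1.75 with LPS/IFNγ on the log2 scale. *Nlrc4*, a further inflammasome gene, fell by 2.43 with LPS/IFNγ, and *Mefv* (pyrin) was the largest rise of the processing genes in frHMGB1, at 0.93.

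Of the 20 signalling genes, 13 were called higher and 1 lower in dsHMGB1 (23.3% and 24.2% of all genes), 13 and 3 with LPS (26.7% and 36.2%), and 14 and 4 with LPS/IFNγ (29% and 31.2%). *Nfkbiz*, a nuclear regulator of NF-κB targets, led in each condition, with log2 fold changes of 1.36 in frHMGB1, 6.05 with dsHMGB1, 7.41 with LPS and 6.64 with LPS/IFNγ. *Tab1*, an adaptor of the kinase TAK1, was the largest fall in dsHMGB1, LPS and LPS/IFNγ, from 1064 normalized counts in PBS to 533, 514 and 385. *Irak3*, which encodes the inhibitory kinase IRAK-M, rose to 2785 normalized counts in dsHMGB1 and 2270 with LPS from 884 in PBS but had 569 with LPS/IFNγ, a level below that in LPS (adjusted p = 8.69e-06). dsHMGB1 exceeded LPS/IFNγ by 2.29 on the log2 scale in *Irak3* (standard error 0.19, adjusted p = 1.15e-06). LPS/IFNγ against LPS also showed *Aim2*, a DNA sensor, at -1.39, *Nlrp1b* at 1.65 and the adaptor *Tab2* at 0.46. With dsHMGB1 against LPS, the largest called rise and fall were *Nlrc4* (1.10) and *Gsdmd* (-0.54) among the processing genes, and *Ikbkg* (0.51) and *Tnfaip3* (-1.52) among the signalling genes. Against LPS/IFNγ, dsHMGB1 was lower in *Casp8* (-1.25) and *Tab2* (-1.10) and higher in *Nlrc4* (2.08). Against frHMGB1, dsHMGB1 had *Nlrp3* at 5.87, *Nfkbiz* at 4.70, *Nlrp1b* at -2.77 and *Tab1* at -1.09. Over all 4 lists, 3 genes were called higher and 11 lower in dsHMGB1 than in LPS (15.8% and 10.6% of all genes), 11 and 11 with dsHMGB1 against LPS/IFNγ (16.5% and 16.7%), and 5 and 11 with LPS/IFNγ against LPS (16.3% and 9.36%).

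**Figure D4:**
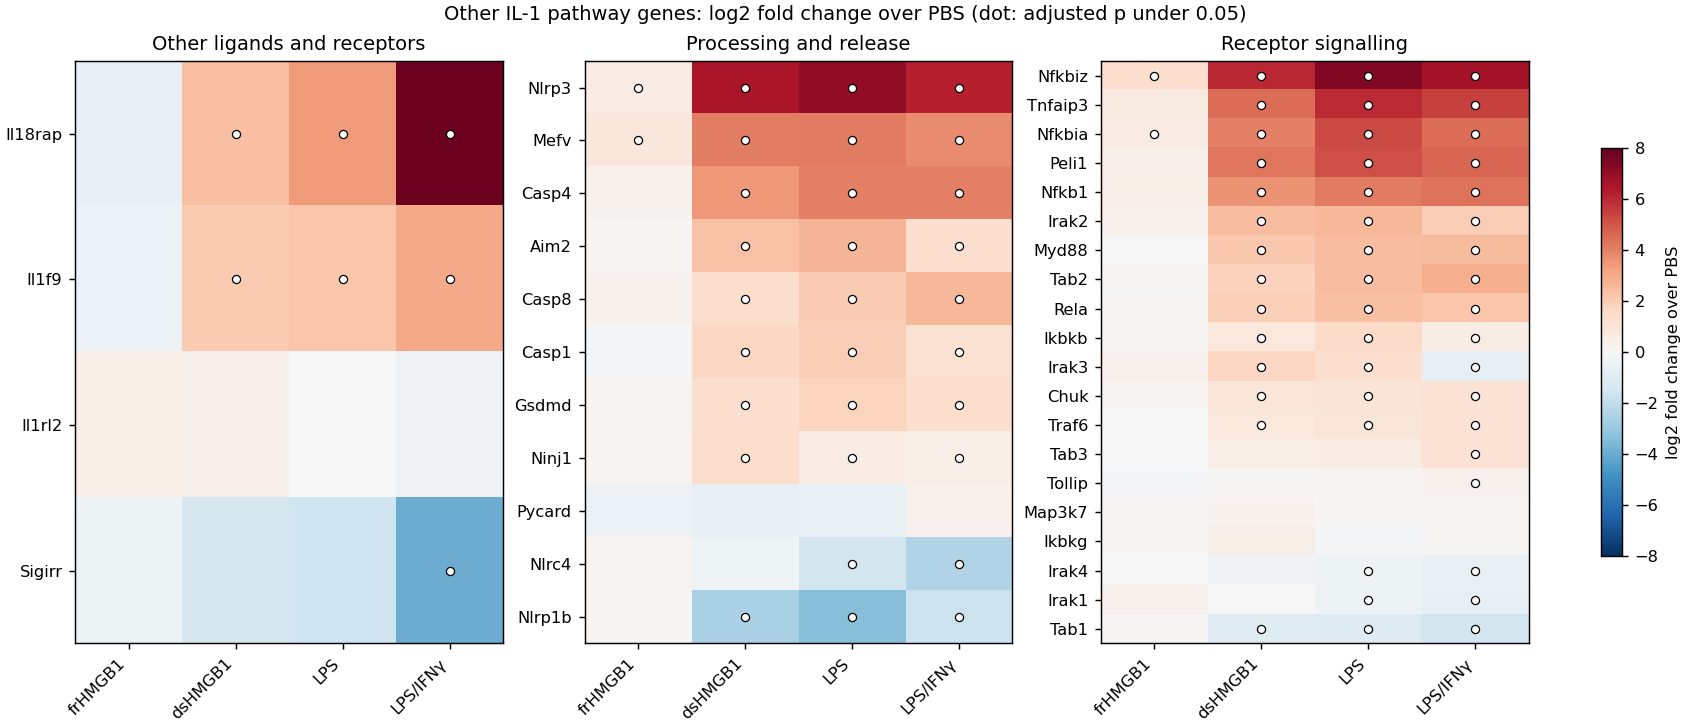
Log2 fold change over PBS (colour) of the 35 tested genes of the other IL-1 pathway lists (rows) in the 4 stimulated conditions (columns), with dots for an adjusted p under 0.05. *Il18rap* has the deepest colour in LPS/IFNγ, at 7.83, and *Irak3* is above PBS in dsHMGB1 and LPS and below it in LPS/IFNγ.

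The genes whose pattern over the 15 libraries was most like each IL-1 family gene were listed by Pearson's r of log2(normalized count + 1), among 10095 protein-coding genes averaging 100 or more normalized counts. The libraries share their conditions, so these values only describe likeness of level. For *Il1a* they were *Azi2* (r = 0.998), *Ms4a6d* and *Hdc*, for *Il1b* *Ghitm* (0.997), *Il15ra* and *Tnfaip2*, and for *Il18* *Batf* (0.997), *Slc3a2* and *Rbpms*, all highest in LPS. *Hdc*, the enzyme that makes histamine, went from 1.48 normalized counts in PBS to 1386 with dsHMGB1, 8270.4 with LPS and 1948 with LPS/IFNγ. *Il1rn* was most like *Car2* (0.998), *Lck* and *Pfkp*, *Il18bp* most like *Prpf38b* (0.997), *Samhd1* and *Gpr132*, *Il33* most like *Tyro3* (0.994), *P2ry2* and *Plekha5*, and *Il1rap* most like *Sf3b1* (0.999), *Kdm6b* and *Cdyl2*, all highest in LPS/IFNγ. *Tyro3*, a receptor tyrosine kinase, had 42.6 normalized counts in PBS, 50.3 with dsHMGB1, 766 with LPS and 1673 with LPS/IFNγ. The low receptor genes had weaker neighbours, at most 0.945 for *Il1r1* (*Acly*, then *Atg9a* and *Tesk1*), 0.845 for *Il1rl1* (*Rbfox2*, then *Disc1* and *Pdha1*) and 0.639 for *Il1r2* (*Prdm11*, then *Rpp30* and *Pum3*). With Spearman's rho, 3 of these 30 genes stayed on the list.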

How the data were processed

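RNA-Seq was performed on 15 libraries of mouse BMDMs. The authors prepared stranded mRNA libraries, demultiplexed the reads with CASAVA and aligned them to GRCm38 with STAR, and the deposited table holds raw counts per Ensembl gene. For the counting program, its annotation and its strand setting, nothing is given in the sources used. Positions and symbols came from GENCODE M21 (51661 of 51763 identifiers found).

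Samples were grouped by the labels. Genes were kept with edgeR's filterByExpr (minimum count 10, total 15) and tested with edgeR 4.0.16 (quasi-likelihood F test, TMM, all 15 libraries in one fit, no covariate) in R 4.3.3. Adjusted p-values are Benjamini-Hochberg over all genes tested, with a threshold of 0.05. Normalized counts, log2 fold changes without shrinkage, standard errors and their 95% intervals are from DESeq2 1.42.0, while log2 values of alternative fits are edgeR's. Ratios used a pseudocount of 0.5 and exact permutation tests (scipy 1.17.1). The edgeR fit was also run on simulated counts with known rises in dsHMGB1 alone. The DESeq2 values, ratios and other steps were not tested in this way. Total counts ranged from 40934540 to 80925478. Intervals of counts cover counting error only.

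The genes named were the 10 IL-1 family genes, the other ligands and receptors of the family, the largest called rise and fall of the processing and of the signalling list in each comparison (averaging 100 or more normalized counts), the 3 genes most like each in pattern, and the most counted or absent markers of each list. The choice of any further marker followed a look at its values. The 10 genes and the lists were chosen with earlier results of these data known. Alternatives were DESeq2's test, RLE scaling, other filters on low counts, protein-coding genes alone, the compared conditions alone, the replicate number as a block and libraries left out in turn.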

Additional observations from a re-analysis of the deposited data

How the results depend on the processing

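No direction of a called value reversed. Of 1053 alternative values for single genes, 1024 kept their side of the threshold, 25 lost a call and 4 gained one. The sign differed in 30 of the 1024, none of them called in either fit, 8 of these without PBS replicate 3. Replicate numbers did not pair the libraries, with a median correlation of -0.0045 between same-numbered libraries, and with the replicate block *Il33* in dsHMGB1 (adjusted p = 0.0589) and *Il1rl1* in LPS/IFNγ (adjusted p = 0.0656) were no longer called. With only the compared conditions fitted, 0 of the 10 genes were called higher in frHMGB1. In the 4 pathway lists the same fit called 0 higher in frHMGB1, 3 lower in LPS, 4 lower in LPS/IFNγ, 7 higher in dsHMGB1 than in LPS, and, in LPS/IFNγ against LPS, 10 higher and 17 lower. Protein-coding genes alone gave 2 list genes higher in frHMGB1, and no filter gave 2 lower in dsHMGB1 than in frHMGB1. By longest transcript, 6 of 10 genes kept their place in the PBS order, and Spearman's rho kept 3 of 30 similar genes. With each library left out in turn, 0 to 1 of the 10 genes were called lower in frHMGB1. In the lists, 3 to 10 were then higher in frHMGB1 and 2 to 5 lower in dsHMGB1 over PBS. dsHMGB1 had 2 to 7 higher and 10 to 18 lower than LPS, 7 to 16 higher and 6 to 17 lower than LPS/IFNγ, and 2 to 6 lower than frHMGB1, and LPS/IFNγ had 2 to 6 higher and 9 to 18 lower than LPS. PBS replicate 3 gave several of these extremes when left out (10 higher in frHMGB1, 5 lower in dsHMGB1, 18 lower in dsHMGB1 than in LPS, 17 lower in dsHMGB1 than in LPS/IFNγ and 18 lower in LPS/IFNγ than in LPS), in comparisons without PBS as a choice made after seeing the data. The share of all genes called in each alternative fit is not given, so these counts cannot be set beside all genes. The causes of the changes were not tested. *Il1r1*, *Il1r2* and *Il1rl1* had under 60 normalized counts in every library, and the effect of depth on them was not tested.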
